A study of Arabidopsis thaliana with 116 samples.

Results

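DFR (AT5G42800) and BAN (AT1G61720) encode reductases of tannin synthesis in the seed coat, and each was read from the single probe set annotated to its symbol. They are 2 of 13286 genes with at least 1 probe set annotated to that gene alone and a matching gene record, and 2 of 22746 probe sets tested. Both were measured in immature seeds of Arabidopsis thaliana, in 116 recombinant inbred lines bred from reciprocal crosses between Col-0 and C24, each line a largely homozygous mosaic of the parents. Of these lines 59 have names that begin with Q and 57 have names that begin with R, and the labels do not state which letter stands for which direction of the cross. For every line the seeds of 8 siliques from each of 6 plants were pooled at 10 to 11 days after the flowers opened, and RNA from 200 mg of them went to 1 Affymetrix array. The error within a line can therefore not be estimated, and the number of arrays limits the precision. Tests weigh effects against the spread between lines, which also holds the error of single pools and arrays.

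The flavonoid pathway turns phenylalanine into flavonols, anthocyanins and condensed tannins. DFR, dihydroflavonol reductase, makes leucoanthocyanidins, which leucoanthocyanidin dioxygenase turns into anthocyanidins. BAN, anthocyanidin reductase, turns anthocyanidins into epicatechin, the unit of the condensed tannins that fill the endothelium, the innermost layer of the seed coat, and brown it when they are oxidised. DFR also serves anthocyanin synthesis, whereas BAN belongs to the tannin branch. In seeds both genes are known targets of the transcription factor complex of TT2, TT8 and TTG1, and the seed coat is tissue of the mother plant.

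Both genes had signal above that of most probe sets and varied more between lines than most. Signals are log2 values on the scale of the authors' RMA normalisation, so 1 unit is a doubling. Where levels of different probe sets are set side by side, this is a description of signal only. The DFR signal was lowest at 6.93 log2 in line R005, had a median of 7.90 and was highest at 9.19 in line R113, with a mean of 7.91 ± 0.442 (SD, n = 116 lines). The BAN signal was lowest at 7.75 in line R199, had a median of 8.62 and was highest at 10.16 in line R113, with a mean of 8.68 ± 0.415 (SD, n = 116). The extremes were thus 4.80-fold apart for DFR and 5.29-fold apart for BAN, and neither gene split the lines into separate modes by the criteria used for marker genes.

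The mean of DFR lay above the mean of 79.4% of probe sets and its SD above that of 94.8%, and for BAN these shares were 87.9% and 93.9%. The median SD of all probe sets was 0.169 log2. Of the defining tannin cell genes, DFR and BAN were the only ones with a named probe set here, so the label of tannin cells rests on these genes themselves. Embryo and seed coat transcripts came from the same whole seeds, so fewer seed coat cells and less transcript per cell cannot be told apart. A probe set signal also cannot tell a sequence difference under the probes apart from a difference in transcript level.

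**Figure D1:**
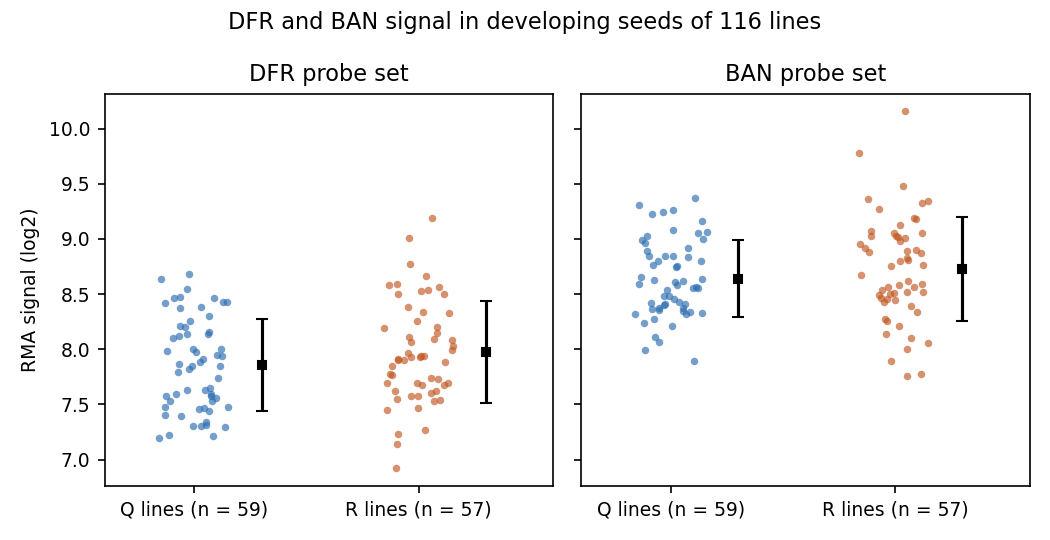
RMA signal (log2, vertical axis) of the DFR probe set (left) and the BAN probe set (right), with 1 point per line, Q lines in blue and R lines in orange, and the mean with its SD as a black square with bars. The Q and R lines overlap over nearly their whole range, and the highest value of both genes belongs to an R line.

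The lines differed in DFR and BAN within each letter far more than between letters. In Q lines DFR ran from 7.20 through a median of 7.85 to 8.68 log2 (mean 7.86 ± 0.418, SD, n = 59), and in R lines from 6.93 through 7.93 to 9.19 (7.97 ± 0.462, SD, n = 57). In Q lines BAN ran from 7.90 through 8.59 to 9.37 (8.64 ± 0.348), and in R lines from 7.75 through 8.75 to 10.16 (8.73 ± 0.474). The letters overlapped widely for both genes, and the R lines held both extremes.

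The Q minus R difference was -0.11 log2 for DFR (95% interval -0.27 to 0.05; limma, adjusted p = 0.47) and -0.09 for BAN (-0.24 to 0.06; limma, adjusted p = 0.573). Neither gene passed the threshold of 0.05, in a comparison that called 3.07% of all probe sets, 1.24% of all being lower in Q lines. A p that misses the threshold does not show that the letters are alike, and the intervals allow a difference of up to 0.27 log2 for DFR and 0.24 for BAN, lower in Q lines.

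DFR and BAN rose and fell together over the lines. Their signals correlated with Pearson's r = 0.622 and Spearman's rho = 0.589 over 116 lines, each with a two-sided permutation p of 1e-05, the smallest that 100000 resamples can give. Within Q lines r was 0.578 and rho 0.549, and within R lines r was 0.650 and rho 0.612. Without the pair of lines farthest from the DFR median r was 0.592, and without the pair farthest from the BAN median it was 0.570.

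Among 22745 other probe sets BAN ranked 5th by its correlation with DFR, and 4th among named genes. DFR ranked 8th by its correlation with BAN, and 3rd among named genes. Line R113 had the highest signal of both genes. Of the 10 lines highest in DFR and the 10 highest in BAN 5 were shared, and of the 10 lowest 1 was shared. Among the highest in either gene 0 lines were among the lowest in the other. Each set holds 10 of 116 lines, so the counts of 1 and 0 are near those of unrelated picks. Only the overlap of the highest lines stands clearly above that. Line R059, second for DFR at 9.01, stood 36th for BAN at 8.90, so the pairing was loose at single lines.

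Array-wide measures also moved with the genes. The array median had r = 0.207 with DFR (adjusted p = 0.0379) and 0.150 with BAN (adjusted p = 0.14), and the 3' minus 5' difference of the array's control probe sets, an RNA quality measure, had r = 0.218 (adjusted p = 0.0309) and 0.112 (adjusted p = 0.261), by permutation tests adjusted over 18 relations. With that difference and the letter held fixed the correlation of DFR with BAN was 0.609. The first principal component of the whole table, which held 12.8% of the variance of that table, had r = 0.504 with DFR and 0.485 with BAN (adjusted p = 3.6e-05 for each; 0.527 and 0.440 without the pair of lines farthest from its median). With this component held fixed the correlation of DFR with BAN was 0.500, and with 10 components held fixed it was 0.620.

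**Figure D2:**
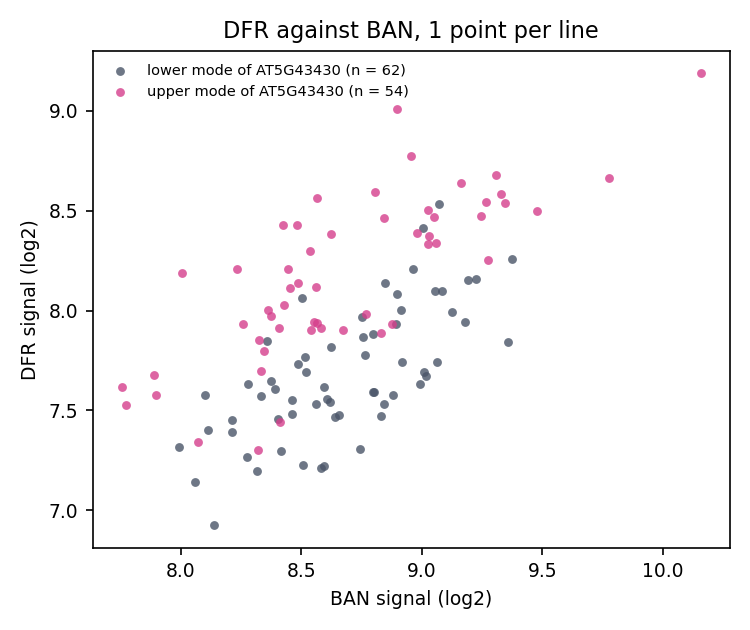
DFR signal (log2, vertical axis) against BAN signal (log2, horizontal axis) with 1 point per line, grey for lines in the lower mode and pink for lines in the upper mode of the chromosome 5 marker gene AT5G43430. DFR rises with BAN in both colours, and the pink points mostly lie above the grey ones at a like BAN signal.

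The study's design was an eQTL analysis, a search for loci at which lines with different parental alleles differ in transcript level. Here loci were read from 124 marker genes whose own signal split the lines into a lower and an upper mode, gathered into 90 bins of 200 consecutive annotated genes. Each bin had a score from 0 to 1, the mean over its markers aligned to the clearest one, and is named by that clearest marker. The score runs from the lower to the upper mode of that marker. A change is the fitted difference in signal from a score of 0 to a score of 1, with the letter as covariate. Which parent gave which mode is not assigned.

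DFR followed the part of chromosome 5 where the gene itself lies. The strongest bin was that of AT5G43430, 95 places from DFR in gene order. The 62 lines in the lower mode of AT5G43430 had DFR signals from 6.93 through a median of 7.63 to 8.53 (mean 7.69 ± 0.331, SD), and the 54 lines in the upper mode from 7.30 through 8.20 to 9.19 (8.17 ± 0.410). The modes overlapped, but 88.9% of the upper lines lay above the median of the lower lines.

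DFR changed by 0.48 ± 0.0679 log2 at this bin (SE, n = 116; limma, adjusted p = 2.35e-08 over all probe sets and bins), which accounted for 30.4% of its variance. At the bin of AT5G42240, whose clearest marker lies 80 places from DFR on its other side, DFR changed by 0.47 ± 0.0691 (adjusted p = 9.7e-08; 28.6% of variance). These flanking bins carry nearly the same lines, since 4 of 115 lines stood at opposite ends of them. Of all probe sets 7.3% were called at the bin of AT5G43430 and 7.39% at that of AT5G42240, and 29.8% of the nuclear probe sets with a bin at their own place were called there.

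The local call of DFR was lost with 10 principal components of all values as covariates (0.30, adjusted p = 0.202), and these components held 78.3% of the score of the AT5G43430 bin itself. It was kept with the first component alone (0.38, adjusted p = 1.32e-05) and with the RNA quality measure as covariate (0.46, adjusted p = 1.39e-07).

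In all 28 of 90 bins were called for DFR, 16 of them on chromosome 5, 5 on chromosome 3, 5 on chromosome 4 and 2 on chromosome 1. Of all probe sets 65.4% were called at 1 or more bins, so a call somewhere in the genome sets neither gene apart. On chromosome 5 the change of DFR was 0.48 at AT5G43430, and on one side of it -0.46 at AT5G45140, 0.40 at AT5G47800 and 0.30 at AT5G51490. On the other side it was -0.45 at AT5G41250, 0.42 at AT5G38180 and 0.21 at AT5G24760 (adjusted p = 0.124). Sizes did not shrink steadily with distance, since toward the start of the chromosome DFR was called again with -0.26 at AT5G24240 and -0.33 at AT5G15360 (adjusted p = 0.00495). Signs alternate because the upper mode of a marker may come from either parent, so sizes rather than signs are followed along a chromosome.

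**Figure D3:**
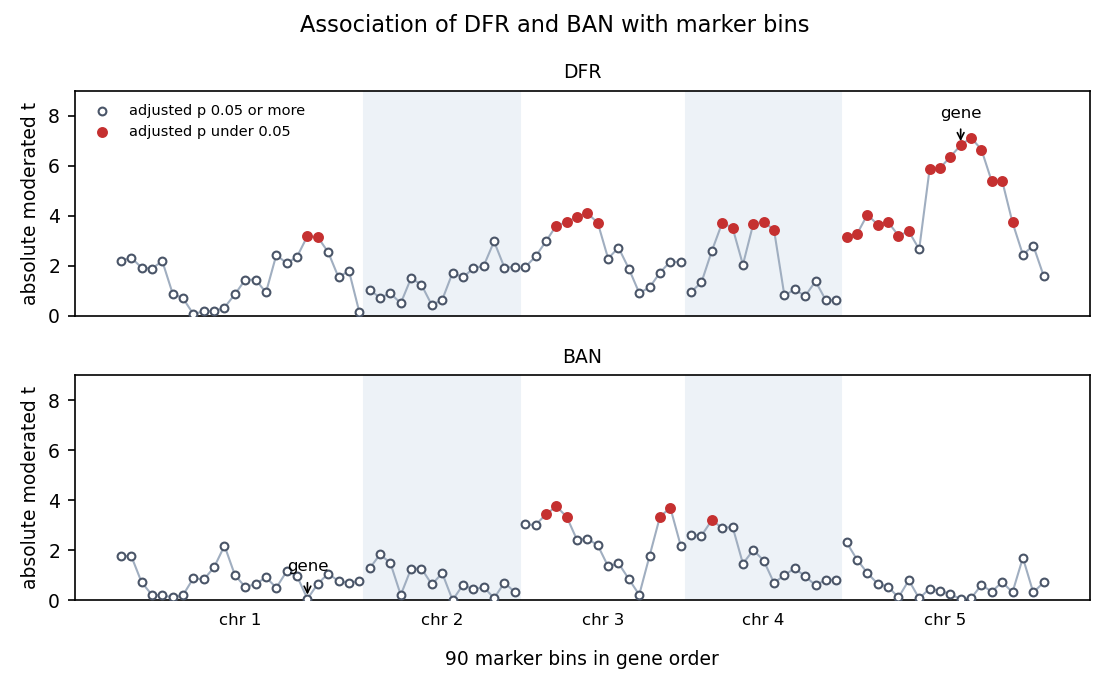
Absolute moderated t (vertical axis, no unit) of DFR (upper panel) and BAN (lower panel) at each of 90 marker bins in gene order along chromosomes 1 to 5, with filled red points for adjusted p under 0.05 and an arrow at the bin of the gene's own place. DFR peaks around its own place on chromosome 5, where BAN has no called bin, and both genes have called bins near the start of chromosome 3.

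With the strongest bin as a covariate 5 bins were called for DFR, and all 5 lay on chromosome 3. The largest change there was at AT3G12610, with 0.28 ± 0.0659 log2 (SE; adjusted p = 0.0027), followed by 0.27 at AT3G10530 (adjusted p = 0.00382), -0.25 at AT3G17940, -0.23 at AT3G19520 and -0.22 at AT3G07180. Without that covariate the largest change of DFR off chromosome 5 was -0.32 at AT3G17940 (adjusted p = 0.00412), where 4.7% of all probe sets were called. The calls of DFR on chromosomes 1 and 4 were not made with the covariate. Together the bins of AT5G43430 and AT3G10530 accounted for 39.6% of the variance of DFR.

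BAN was called in part of the same stretch of chromosome 3 and at 0 of the 20 bins of chromosome 5, where DFR lies. At AT3G17940 BAN changed by -0.19 and was not called (adjusted p = 0.166). Its strongest bin was that of AT3G10530, closely followed by that of AT3G55470, which was the stronger with array medians subtracted (-0.28, adjusted p = 0.0086), with the RNA quality covariate (-0.28, adjusted p = 0.00757) and with the first principal component as covariate (-0.21, adjusted p = 0.0588). The 47 lines in the lower mode of AT3G10530 had BAN signals from 7.75 through a median of 8.48 to 9.48 (mean 8.51 ± 0.355, SD), and the 69 lines in the upper mode from 7.89 through 8.83 to 10.16 (8.80 ± 0.416). The modes overlapped over most of their range, and 78.3% of the upper lines lay above the median of the lower lines.

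BAN changed by 0.28 ± 0.0740 log2 at this bin (SE, n = 116; limma, adjusted p = 0.0107), or 10.9% of its variance, where 3.83% of all probe sets were called. It was called at 6 bins in all. On chromosome 3 these were AT3G10530, its neighbours AT3G07180 (-0.26) and AT3G12610 (0.25), and, near the far end, AT3G50220 (-0.26) and AT3G55470 (-0.27). The remaining bin was that of AT4G10030 on chromosome 4 (0.24, adjusted p = 0.0419), where 5.2% of all probe sets were called.

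Scores of the AT3G10530 and AT3G55470 bins had r = -0.046 over lines, so these calls do not rest on the same split of the lines. With the strongest bin as a covariate the bins of AT3G50220, AT3G55470 and AT4G10030 were still called for BAN. The call at AT4G10030, the only one off chromosome 3, was lost without the pair of lines farthest from the BAN median (0.19, adjusted p = 0.1). No BAN call was kept with the first principal component as covariate, where the change at AT3G10530 was 0.19 (adjusted p = 0.126). With 10 components, which held 47.8% of the score of the AT3G10530 bin itself, the change there was 0.13 (adjusted p = 0.544). The 1 bin then called was that of AT2G03980 on chromosome 2 (0.23, adjusted p = 0.00976), which was not called without these components (adjusted p = 0.584).

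At its own place on chromosome 1 BAN showed no called change. The bin of AT1G61500, 37 places from BAN, gave BAN a change of 0.00 (SE 0.0822; adjusted p = 0.989), whose sign turned under other scalings and covariates, where 5.93% of all probe sets were called. DFR, which lies on chromosome 5, changed by 0.27 at that same bin (adjusted p = 0.0444). With the strongest bin of DFR as a covariate this was 0.18 (adjusted p = 0.165). The bin rests on 1 marker gene.

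Of the bins called, 2 were called for both genes with the same sign, AT3G10530 and AT3G12610 on chromosome 3. They are 33.3% of the bins of BAN and 7.14% of those of DFR. Over all 90 bins 28 were called for DFR and 6 for BAN. Both shares are thus close to those over all bins, and the count alone does not show that the genes share loci. At AT3G10530 the lower lines had DFR signals from 6.93 through 7.69 to 8.56 (7.74 ± 0.412, SD) and the upper lines from 7.23 through 7.98 to 9.19 (8.03 ± 0.424), a change of 0.28 ± 0.0788 (SE; adjusted p = 0.0164). At AT5G43430 the lower lines had BAN signals from 7.99 through 8.65 to 9.37 (8.68 ± 0.339) and the upper lines from 7.75 through 8.56 to 10.16 (8.69 ± 0.492), a change of 0.01 ± 0.0767 (adjusted p = 0.984). The mean of DFR thus differed between the modes of both markers, with wide overlap, while the BAN signals of the chromosome 5 modes had nearly the same mean.

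The difference between the genes was tested on the within-line difference DFR minus BAN, a test chosen after the scan had been seen. At AT5G43430 DFR changed by 0.48 ± 0.0539 log2 more than BAN (SE; 95% interval 0.37 to 0.58; two-sided permutation p = 1e-05, the smallest 100000 resamples can give, adjusted over both tests to 2e-05). That bin had been chosen as the strongest for DFR, so the size is a description. With 10 principal components as covariates the difference was 0.31 (adjusted p = 0.00284).

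At AT3G10530 DFR changed by 0.01 ± 0.0716 log2 more than BAN (95% interval -0.14 to 0.15; permutation p = 0.939). That bin had been chosen as the strongest for BAN, so this size and its p too are a description. Differences of up to 0.15 log2 lie within that interval, so the genes may still differ there. With the strongest bin of each gene and the letter held fixed, the correlation of DFR with BAN was 0.700, against 0.622 without.

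**Figure D4:**
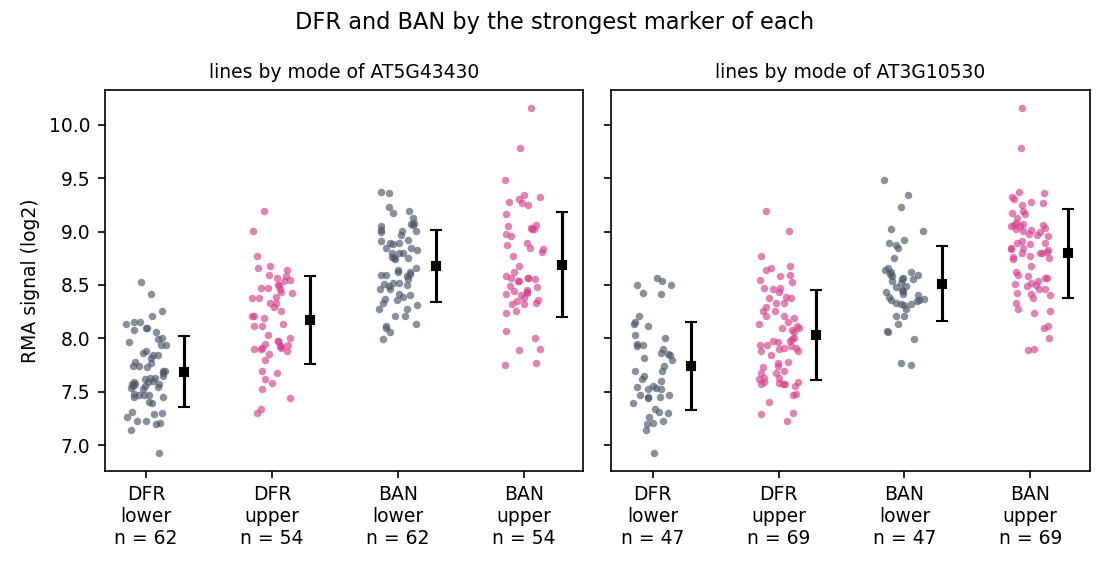
RMA signal (log2, vertical axis) of DFR and BAN in lines grouped by the lower (grey) or upper (pink) mode of AT5G43430 on chromosome 5 (left) and AT3G10530 on chromosome 3 (right), with 1 point per line and the mean with its SD as a black square with bars. DFR is higher in the upper mode of both markers, and BAN is higher in the upper mode of AT3G10530 while its means in the modes of AT5G43430 are 8.68 and 8.69.

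The changes were set side by side in Q and R lines. DFR changed by 0.43 log2 in Q and 0.53 in R lines at AT5G43430, a Q minus R difference of -0.10 ± 0.136 (SE; limma interaction, adjusted p = 0.929). BAN changed by 0.22 in Q and 0.34 in R lines at AT3G10530, a difference of -0.12 ± 0.149 (adjusted p = 0.999). The interaction called 0% of probe sets at either bin, at unadjusted p of 0.477 for DFR and 0.434 for BAN.

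Values of both genes at a few further bins complete the comparison. The bin of AT4G02540 on chromosome 4 changed DFR by 0.08 (adjusted p = 0.714) and BAN by 0.20 (adjusted p = 0.13). At the bin of AT5G51490 DFR changed by 0.30 (adjusted p = 0.0119) and BAN by -0.03 (adjusted p = 0.925). At that of AT5G38180 DFR changed by 0.42 (adjusted p = 6.65e-06) and BAN by 0.04 (adjusted p = 0.881). Both of these bins lie on chromosome 5 with DFR. With the bin of AT5G43430 as a covariate their changes of DFR were -0.15 (adjusted p = 0.535) and 0.15 (adjusted p = 0.488). The bin of AT3G55470 changed BAN by -0.27 (adjusted p = 0.0127) and DFR by -0.17 (adjusted p = 0.253).

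The rest of the flavonoid pathway could be followed only in part, since 8 of 43 listed flavonoid genes had a named probe set here, and none of the listed pathway entry genes, early enzymes or regulators did. Association with DFR or BAN over lines is given as a slope, the log2 change of a gene per log2 of DFR or BAN. Over all probe sets 9.17% rose and 9.71% fell with DFR, 8.27% rose and 8.37% fell with BAN (limma, adjusted p under 0.05), and the median slope was -0.01 for each. Against DFR as the measure BAN had a slope of 0.58 ± 0.0690 (SE; adjusted p = 3.94e-10), and against BAN as the measure DFR had 0.65 ± 0.0776 (adjusted p = 2.91e-10).

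Of the 4 named genes of the flavonol and anthocyanin branch 1 rose with DFR and 1 fell with BAN, with median slopes of -0.04 and -0.06. UGT78D1, which adds rhamnose to flavonols, rose with DFR (slope 0.17, adjusted p = 0.00857) and had 0.06 with BAN (adjusted p = 0.495). UGT78D2, which adds glucose to flavonoids, fell with BAN (-0.12, adjusted p = 0.0299) and had -0.07 with DFR (adjusted p = 0.177). The anthocyanin glycosyltransferase gene UF3GT and the gene AT4G14090 passed with neither, at slopes from -0.06 to -0.04. Signal of these 4 genes averaged from 4.58 to 9.60 log2.

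Of the 2 named genes listed for tannin transport and oxidation, both sterol glucosyltransferases, 1 fell with each gene. UGT80B1, also called TRANSPARENT TESTA 15 for the pale seeds of its mutant, fell with DFR (-0.12, adjusted p = 0.0267) and had -0.03 with BAN (adjusted p = 0.663). UGT80A2 fell with BAN (-0.08, adjusted p = 0.0235; 0.131 without the pair of lines farthest from the BAN median) and had -0.05 with DFR (adjusted p = 0.147). The fall of UGT78D2 with BAN was likewise lost without those lines (adjusted p = 0.0847). Whether the slopes on DFR and BAN differ was not tested for these genes.

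Of 12 listed genes of the outer, mucilage-making layer of the seed coat 2 had a named probe set, and both rose with DFR and with BAN, with median slopes of 0.32 and 0.44. PER36, a peroxidase that loosens the outer wall of mucilage cells, had a mean signal of 5.50 ± 0.513 log2 (SD, n = 116; 4.67 to 7.94) and slopes of 0.41 on DFR (adjusted p = 0.0016) and 0.65 on BAN (adjusted p = 2.35e-07). ARA12, a subtilisin-like protease needed for mucilage release, had 11.06 ± 0.277 and slopes of 0.24 on DFR (adjusted p = 0.000663) and 0.23 on BAN (adjusted p = 0.00288). The mean standardised level of both correlated with DFR at r = 0.468 (rho 0.482; r 0.394 in Q and 0.505 in R lines) and with BAN at r = 0.550 (rho 0.526; r 0.476 and 0.591), each with adjusted permutation p = 3.6e-05. Without the pair of lines farthest from the list's median these were 0.440 and 0.537. With the first principal component as covariate the calls of PER36 with DFR (adjusted p = 0.136) and ARA12 with BAN (adjusted p = 0.166) were lost. Of all called associations of listed genes described here, PER36 with BAN was the only one apart from DFR with BAN that passed with 10 principal components as covariates (adjusted p = 0.0332).

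**Figure D5:**
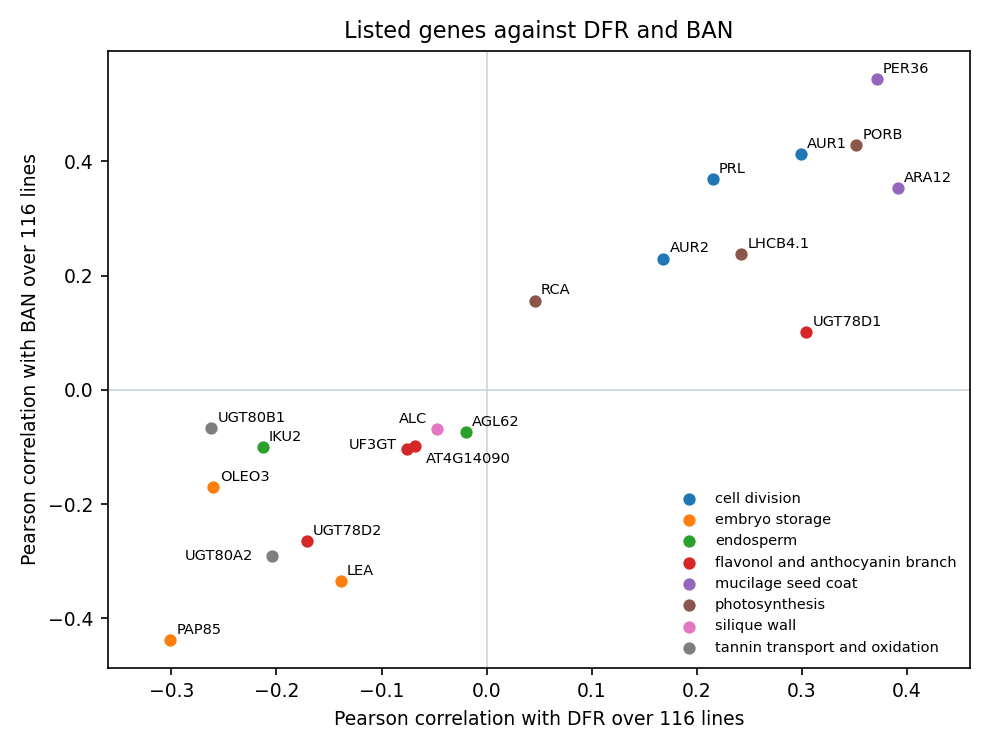
Pearson correlation over 116 lines of each named listed gene with DFR (horizontal axis) and with BAN (vertical axis), coloured by gene list. The mucilage genes PER36 and ARA12 lie in the upper right, the embryo storage gene PAP85 in the lower left, and UGT78D1 correlates with DFR at 0.304 and with BAN at 0.101.

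Genes of other seed tissues moved with DFR and BAN too. The listed embryo storage and late embryogenesis genes were abundant, with means from 12.10 to 13.30 log2, and 2 of 3 fell with each gene. The vicilin-like storage protein gene PAP85 fell with DFR (-0.07, adjusted p = 0.0136) and BAN (-0.11, adjusted p = 0.000109), the oleosin gene OLEO3 with DFR (-0.06, adjusted p = 0.0273) and the late embryogenesis abundant gene LEA with BAN (-0.20, adjusted p = 0.00601). PAP85 and OLEO3 varied little between lines (SD 0.101 log2 each), less than the median SD of 0.169 of all probe sets. Without the pair of lines farthest from the DFR median both calls with DFR were lost, with adjusted p of 0.0637 for PAP85 and 0.107 for OLEO3. The list's mean standardised level had r = -0.314 with DFR (rho -0.284; -0.129 in Q and -0.443 in R lines; adjusted p = 0.00137) and r = -0.423 with BAN (rho -0.340; -0.233 in Q and -0.532 in R lines; adjusted p = 3.6e-05). Without the pair of lines farthest from the list's median these were -0.288 and -0.372. The relation had the same sign in both letters, and the difference between letters was not tested.

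Some genes of dividing and greening tissue rose with DFR or BAN, and the others did not pass. Of 3 cell division genes the Aurora kinase gene AUR1 rose with DFR (0.23, adjusted p = 0.0172; 0.0867 with the RNA quality measure as covariate) and, with the replication gene PRL (0.34), with BAN (0.34, adjusted p = 0.000293), while PRL with DFR (adjusted p = 0.128) and AUR2 with either gene (0.254 and 0.0929) did not pass. The list's level had r = 0.261 with DFR (adjusted p = 0.00946) and 0.386 with BAN (adjusted p = 0.00015). Of 3 photosynthesis genes PORB, which makes chlorophyllide in the light, rose with DFR (0.35, adjusted p = 0.00348) and BAN (0.47, adjusted p = 0.000142), while LHCB4.1 (0.0673 and 0.077) and RCA (0.866 and 0.306) did not pass with either. This list's level had r = 0.253 (adjusted p = 0.0112) and 0.325 (adjusted p = 0.000977). With the first principal component as covariate AUR1 and PORB had slopes of -0.10 on DFR. In that fit PER36 kept its call with BAN (adjusted p = 0.000608), and ARA12 (0.0466), UGT78D1 (0.0371) and UGT80B1 (0.000835) kept theirs with DFR. The other calls of listed genes, apart from DFR with BAN, were lost there. That fit also made calls in the opposite direction to the lists, with LEA rising with DFR (0.16, adjusted p = 0.00978) and PRL falling with it (-0.19, adjusted p = 0.0344).

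The endosperm genes AGL62 and IKU2, at means of 3.24 and 4.35 log2, and the silique wall gene ALC, at 5.75, passed with neither gene. Lists of these tissues had r from -0.152 to -0.047 with DFR and BAN, with adjusted p from 0.14 to 0.617. The endosperm list had r with DFR of 0.046 in Q and -0.384 in R lines. The silique wall list had r with BAN of 0.088 and -0.142. The other pairs were negative in both letters, and differences between letters were not tested. The endosperm genes were dim and the silique wall list was 1 gene, so a miss does not show absence of a relation. The part of embryo, mucilage cell and dividing tissue content in the spread of DFR and BAN was not tested.

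The genes with the most similar pattern to DFR over lines were partly its neighbours. Highest by Pearson's r over 116 lines was AT5G42690 at 0.727 (0.691 in Q and 0.759 in R lines), which lies 15 places from DFR. Next were AT3G01175 at 0.656, AT5G40830 at 0.638, which lies 266 places away, BAN at 0.622, the IQ-domain gene iqd15 at 0.596, AT1G01630 at 0.595, AT5G43140 at 0.584, which lies 55 places away, and AT1G49580 at 0.580. Of these 8 genes 3 lie on chromosome 5 with DFR, and 4 unnamed probe sets were as high as the 8th.

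With the bin of AT5G43430 held fixed the correlation with DFR was 0.586 for AT5G42690, 0.386 for AT5G40830 and 0.241 for AT5G43140, while that of BAN was 0.735. With BAN the neighbour AT5G42690 correlated at 0.446, AT5G40830 at 0.238 and AT5G43140 at 0.178. Lowest with DFR were AT2G03200 at -0.616, the matrix metalloproteinase gene MMP at -0.607, AT3G62590 at -0.605, AT4G19720 at -0.601 and AT4G17215 at -0.587.

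For BAN the most similar named genes lay on all of the chromosomes, 2 of the 8 on its own chromosome 1 at 623 or more places. They were AT2G42860 at 0.719 (0.742 in Q and 0.761 in R lines), AT4G15750 at 0.675, DFR at 0.622, the expansin-like gene EXLA1 at 0.601, AT1G56100 at 0.591, JMT, which methylates jasmonic acid, at 0.588, AT5G22460 at 0.580 and AT5G61370 at 0.574. A total of 10 unnamed probe sets were as high, the highest at 0.754. Lowest were AT3G10810 at -0.583, AT3G11640 at -0.561, AT3G52070 at -0.543, AT3G62590 at -0.534 and COB, a gene of oriented cell expansion, at -0.528. AT3G62590 was among the 5 lowest for both genes, and the genes were chosen for these values, which are given as a description.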

How the data were processed

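Deposited signals are log2 values from RMA, as the authors processed them per the submitters' processing notes. Software version, genome build and scan batches are not given in the sources used. RMA sets arrays to a common distribution and compresses dim signals. The table held 22810 probe sets, and 64 array controls were left out. Array medians lay between 5.84 and 5.99 log2, and correlations between arrays between 0.959 and 0.994. The probe annotation gave 13513 probe sets 1 gene, 503 several and 8730 none. Of these, 13436 matched a RefSeq gene of TAIR10.1, used for names and gene order only.

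Letters, marker bins, interactions and slopes were tested with limma 3.58.1 in R 4.3.3 on all probe sets, with Benjamini-Hochberg adjustment (over bins too in the scan), and the letter as covariate. Markers had modes 4 SD or more and 1 log2 or more apart, at least a share of 0.2 of lines in the smaller mode and a BIC gain of 10 or more. Correlations used 100000 permutations (Python 3.11.15, numpy 2.4.6, scipy 1.17.1, pandas 2.3.3; plots with matplotlib 3.10.9). Scripts were tested on simulated data. Alternatives were other scalings, a filter at a mean of 5 log2, array weights, RNA quality, 1 or 10 principal components, other bins and markers, and removal of extreme lines.

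DFR, BAN and the gene lists were chosen with earlier results of these data known. Named were both genes, listed genes with a probe set, the 8 highest and 5 lowest correlated genes of each, and markers of called, strongest and nearest bins. The markers AT4G02540, AT5G24760 and AT2G03980 were also named, after their values were seen. Replicate numbers are accession order.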

Additional observations from a re-analysis of the deposited data

How the results depend on the processing

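The DFR change at AT5G43430 ranged from 0.30 to 0.49 log2 over the alternatives, and the correlation of DFR with BAN from 0.500 to 0.700. The Q minus R difference ranged from -0.15 to -0.07 for DFR and from -0.11 to -0.04 for BAN and was never called. Of 248 values under alternatives 187 kept their direction and their side of the threshold (counts of calls stayed within 1.5 times), 34 kept direction without the call, 14 turned sign and 13 counts moved further.

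With the first principal component as covariate, BAN at AT3G10530 was 0.19 and at AT1G61500 -0.14, DFR was called at 18 and BAN at 0 bins, 1258 probe sets fell with DFR, 509 rose and 596 fell with BAN, and DFR minus BAN at AT3G10530 was -0.0046. The slope on DFR was then 0.0043 for PAP85, -0.10 for PORB and -0.10 for AUR1. With 10 components DFR was 0.30 at AT5G43430 and 0.27 at AT5G42240 (adjusted p = 0.36), with 0 bins called, and BAN was 0.13 at AT3G10530 and -0.16 at AT1G61500, with 1 bin called, that of AT2G03980. Then 9 probe sets rose and 1 fell with DFR, and 77 rose and 59 fell with BAN. Slopes on DFR were 0.025 for PAP85, 0.045 for OLEO3 and -0.015 for ARA12, and on BAN 0.0024 for PAP85 and 0.079 for UGT78D2. BAN at AT1G61500 was -0.0017 with array medians subtracted, -0.051 with modes at least 5 SD apart and -0.018 without the pair of extreme lines. With the strongest bin as covariate 5 bins were called for DFR and 3 for BAN. The cause of these changes was not tested.

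Alternatives with principal components, extreme lines and added covariates for DFR minus BAN and for the slopes were in part chosen after seeing the data. No paired analysis was possible because the numbers of the lines name separate lines and pair none across letters. Signal over background of single arrays was not used here, and 1 array per line limits every value.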
